A study of Arabidopsis thaliana with 3 samples.

Results

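The subject of this report is a set of Arabidopsis thaliana transcripts that stayed near their cold-acclimated level after 3 h of recovery from freezing and were well below it after 24 h. Members were chosen by their measured signals on all 3 arrays. A member is a probe set that names 1 gene, whose signal was at least 3-fold lower on the 24 h array than on the cold-acclimated array and within 2-fold of it on the 3 h array, with signals below a floor of 16.1 set to that floor. Of 13513 Arabidopsis probe sets naming 1 gene, 178 met both thresholds. From these, 18 genes of ribosomal proteins, 1 organelle-encoded gene, 1 gene with a UGT symbol and 8 genes named by the rule were left out, which leaves 150 probe sets for 149 genes. UGT genes, of a glycosyltransferase family, were left out by symbol only. Glycosyltransferase genes under another symbol, such as UF3GT, or under a locus code alone were not removed. The study profiled all aerial parts of the reference accession Col-0 on Affymetrix ATH1 arrays, where several short probes report on each transcript. Every plant was grown at 20 °C with 9 h of light and 15 h of dark to growth stage 1.14 and then spent 11 days at 4 °C in the same cycle. The cold-acclimated array came from such plants at hour 5 of the light period, whereas the 3 h and 24 h arrays came from plants that were next frozen for 20 h, starting when the light period ended, at a temperature the labels print as 6.0 °C with no sign, and then kept at 20 °C in the dark for those times. The labels name no mutation or transgene in any group and do not say whether plants were pooled. There was 1 array per group, so a ratio compares 2 arrays, no test was run and no value has a replicate error. Freezing, warming and darkness cannot be told apart, since both recovery arrays differ from the cold-acclimated one in all of them.

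Leaf cells spend much of their energy on making ribosomes and proteins, on building chloroplasts and on defence compounds. In plants at large, long darkness uses up sugar stores, and transcripts of growth, of ribosome building and of chloroplast biogenesis are known to be lowered when energy is short.

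The 3 arrays had similar overall signal, with medians of 42.6 on the cold-acclimated, 39.5 on the 3 h and 42.8 on the 24 h array over 22746 Arabidopsis probe sets, of which 69.6 to 70.5% lay at or above the floor. Their means with the extreme 2% trimmed were 100.009, 100.01 and 100.008, so the deposited signals had been scaled to a common level. The similar medians follow largely from that scaling and say little about the samples. The spread between 2 probe sets of the same gene, over 73 genes, gave an SD for 1 probe set of 0.34 log2 units for 3 h against cold-acclimated, 0.39 for 24 h against cold-acclimated and 0.35 for 24 h against 3 h. Only probe sets above the floor on all 3 arrays were used for it. Both probe sets of a gene were read on the same arrays, so this SD covers error particular to a probe set. It leaves out error shared by a whole array and the spread between plants. Bacterial RNAs added at hybridization gave signals above the cold-acclimated array, by 1.71-fold at 3 h and 1.44-fold at 24 h. Scaling to these controls in place of the deposited scaling shifted the ratios by -0.78 at 3 h and -0.53 at 24 h, and a common median shifted those at 3 h by 0.11. As a check of the labelled tissue, 3 genes of a written leaf marker list, RCA, LHCB4.1 and LHCB4.2, were on the annotation. Their summed signals were 8425, 7176 and 12519.5 on the cold-acclimated, 3 h and 24 h arrays. LHCB4.3, a related gene that is not on that list, went the other way at 24 h (500.7, 358.8 and 73.9). The 1 root marker was at 20.5, 22.5 and 8.38, and none of the 4 flower markers was on the annotation. In these whole shoots fewer cells of a type and less RNA per cell cannot be told apart.

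The members covered a wide range of signal. Over the 150 probe sets, median signals were 146.2 (cold-acclimated), 113.3 (3 h) and 36.4 (24 h). The cold-acclimated signals ran from 48.4 to 1710.1, those at 3 h from 26.3 to 1449 and those at 24 h from 0.974 to 439. The lower end on the cold-acclimated array is set by the floor, because a probe set needs a signal of at least 48.3 there to be 3-fold above it, and 5600 of the probe sets naming 1 gene reached that. The values at 24 h and 3 h chose the members, so the ratios are given as a description. The log2 ratio of 24 h to cold-acclimated had a median of -1.81 among members, with quartiles of -2.03 and -1.69, against a median of -0.08 among the 5600. Among members, 110 were 3- to 4-fold lower, 40 were at least 4-fold lower and 4 of these were at least 8-fold lower. Across the measured probe sets naming 1 gene, 2.19% were at least 3-fold lower at 24 h, 0.728% at least 4-fold, and 1.88% met both thresholds. Of the 5600 alone, 3.71% were at least 3-fold lower and 3.18% met both thresholds. Of the 208 probe sets at least 3-fold lower at 24 h, 178 were within 2-fold at 3 h, 30 were already lower by 2-fold or more and 0 were higher by that much.

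**Figure D1:**
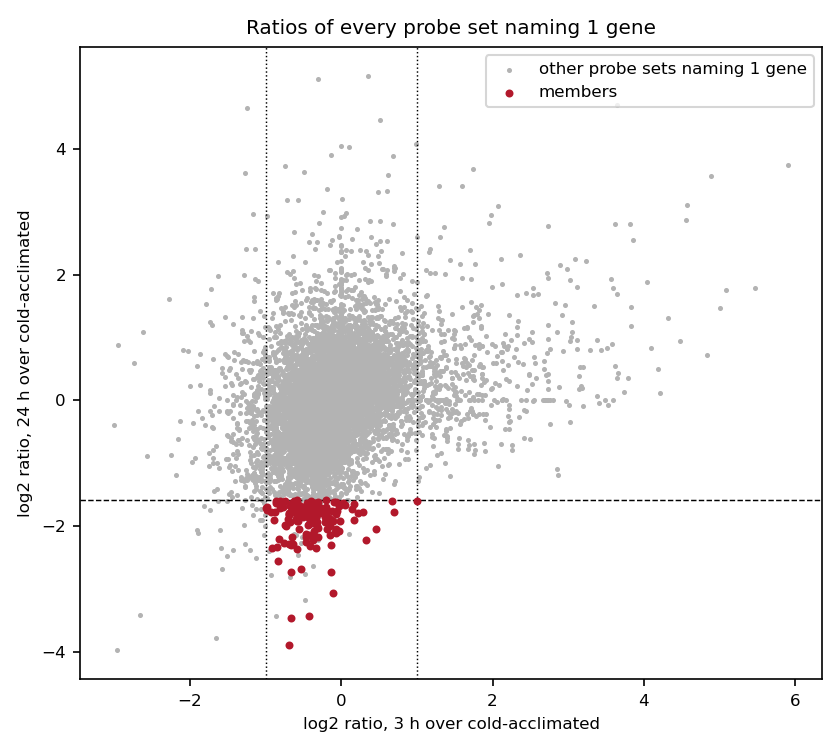
Each point is 1 probe set naming 1 gene, with the log2 ratio of 3 h to cold-acclimated on the horizontal axis and that of 24 h to cold-acclimated on the vertical axis. The 150 members fill the box below the dashed 3-fold line and between the dotted 2-fold lines, mostly left of 0 on the horizontal axis.

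**Figure D2:**
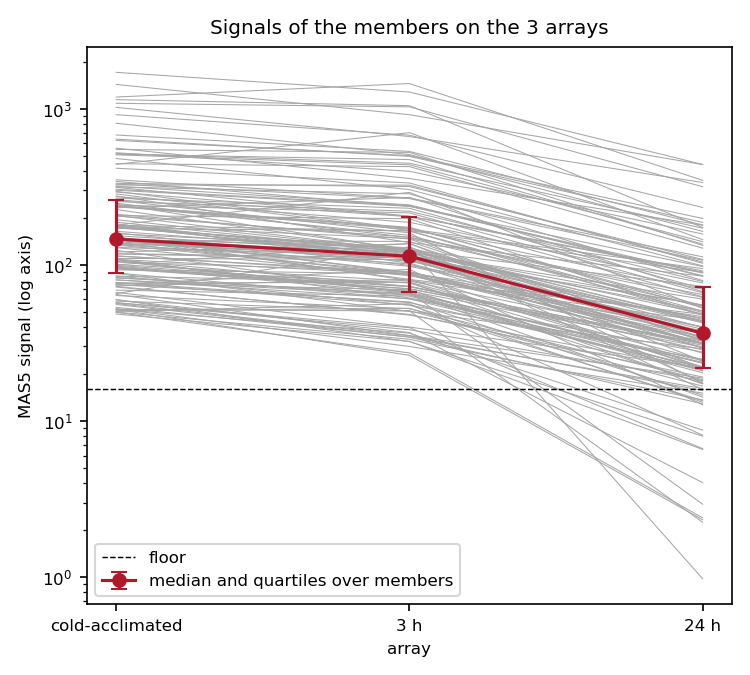
Signal of each of the 150 members (grey lines, log axis) on the cold-acclimated, 3 h and 24 h arrays, with the median and quartiles over members in red. Medians were 146.2 (cold-acclimated), 113.3 (3 h) and 36.4 (24 h), and 21 members ended at or below the floor.

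Among members above the floor at 24 h, the lowest ratio was that of AT1G31690, at 258, 160.1 and 17.4 on the cold-acclimated, 3 h and 24 h arrays, 14.8-fold lower at 24 h. A further probe set of the same gene, at 106.3, 66.9 and 2.92, was itself a member, with a log2 ratio of at most -2.72 at 24 h. At 3 h their log2 ratios to the cold-acclimated array were -0.69 and -0.67. MSRB5, a methionine sulfoxide reductase that repairs oxidised methionine in proteins, followed at 194.5, 122.8 and 17.7, or 11.0-fold lower at 24 h. GSTU20, a glutathione transferase of the tau class, was at 1143, 1046 and 173.3. Its log2 ratio was -0.13 at 3 h and -2.72 at 24 h.

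Among genes known only by locus code, AT1G73600 was at 210.7, 146.2 and 32.7 on the cold-acclimated, 3 h and 24 h arrays, 6.44-fold lower at 24 h, and AT3G22660 at 182.7, 102.5 and 31.2, 5.86-fold lower. AT2G16890 stood at 174.2, 115.8 and 33.9, and AT5G48240 at 123.8, 65.5 and 24.3. Their log2 ratios at 24 h were -2.36 and -2.35. AT3G04550 was at 806.8, 508.1 and 163.7, and AT5G18470 at 479.7, 303.1 and 98.4, so these lowest members included transcripts with strong signals. Next in order came AT1G75200 (134.6, 101.3 and 27.1), AT3G57940 (84.5, 76.9 and 17.2), AT3G18600 (239.3, 154.4 and 49.4) and AT1G48570 (206.8, 122.5 and 42.9), each between 4.82- and 4.96-fold lower. The remaining 5 of the 20 lowest members above the floor were AT1G68600, AT1G06830, AT3G01410, AT4G12830 and AT2G42770, which were 4.49- to 4.60-fold lower at 24 h.

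At 24 h 21 members lay at or below the floor, so their folds are lower bounds. AT1G06000 was at 172.3, 128.0 and 0.974 on the cold-acclimated, 3 h and 24 h arrays, at least 10.7-fold lower. AT5G47455 was at 135.0, 125.1 and 15.9, at least 8.38-fold lower, and its 3 h value was close to the cold-acclimated one. AT4G27340, at 76.6, 55.2 and 13.2, was at least 4.76-fold lower. The remaining 129 members were above the floor on all 3 arrays.

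Members with functions in the nucleus included parts of the transcription and chromatin machinery. NRPB7, a subunit of RNA polymerase II, was at 145.9, 80.6 and 48.1 on the cold-acclimated, 3 h and 24 h arrays, and NRPB9B, a subunit that the reference also lists for polymerases IV and V, at 108.4, 86.7 and 33.5. They were 3.03- and 3.23-fold lower at 24 h. Of the other 9 measured genes with symbols of nuclear RNA polymerase subunits, 3 were at least 2-fold lower and 0 higher, where 7.92% of all measured probe sets naming 1 gene were lower. These were NRPA1 (81.5, 55.5 and 29.1) and NRPA2 (128.6, 123.2 and 60.3) of polymerase I and NRPB12 (278.5, 260.1 and 114.0) of polymerase II. All 9 had ratios below 0 at 24 h, from -1.48 to -0.003. Of these, NRPC1 and NRPB9A were below the floor at 24 h, so their ratios are bounds. HTB1, a histone H2B, was at 235.4, 168.8 and 69.7. Of the other 3 histone H2B genes HTB2 took a similar course (195.6, 183.7 and 70.8), whereas HTB4 (340.5, 261.5 and 235.1) and HTB11 (262.4, 174.1 and 169.3) stayed within 2-fold. YAO, a nucleolar WD-repeat protein needed in embryo development, was at 182.3, 113.4 and 37.3. RBL (REBELOTE), a gene known for its part in ending the growth of floral meristems, was at 128.8, 85.2 and 34.7.

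Genes of ribosome building were mostly lower at 24 h. The list, assigned by locus code from textbook knowledge, held 34 genes, of which 12 were on the annotation and all 12 were measured. At 24 h 8 of the 12 were lower by 2-fold or more and 0 higher, with a median log2 ratio of -1.27, where 7.92% of measured probe sets naming 1 gene were at least 2-fold lower and the 5600 well-measured ones had a median of -0.08. The base of the 7.92% also holds probe sets too dim to show a 2-fold drop above the floor, whereas all 12 genes had cold-acclimated signals of at least 81.6. The 8 include 2 members, which the rule chose for their low 24 h values, and the list was written with earlier results known. The share and the median are therefore a description. With scaling to the hybridization controls the median of the list was -1.80. Its median at 3 h was -0.26. The members AT3G05060 (315.4, 284.9 and 79.3 on the cold-acclimated, 3 h and 24 h arrays) and AT3G15460 (104.2, 90.4 and 31.6) were 3.98- and 3.30-fold lower at 24 h. Just short of the 3-fold threshold lay AT2G40360 (317.7, 205.4 and 109.0) and AT5G14520 (465.3, 336.4 and 160.2). The list's other genes past 2-fold were AT5G08180, AT3G03920, AT5G15550 and NRPA2. The helicase gene PRH75 (430.9, 344.5 and 319.0), RRP41, a subunit of the RNA-degrading exosome (81.6, 83.6 and 63.7), AT5G60990 and AT2G40430 stayed within 2-fold.

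Members of chloroplast and mitochondrial function came from several families. Cpn60beta2 and Cpn60beta3, subunits of the chloroplast chaperonin that helps newly made proteins to fold, were at 415.5, 334.3 and 102.3 on the cold-acclimated, 3 h and 24 h arrays and at 114.2, 88.0 and 29.6. They were 4.06- and 3.85-fold lower at 24 h. Cpn60beta4, the only other gene of that symbol on the annotation, was at 98.0, 51.1 and 37.8, a log2 ratio of -1.38. SAPX, the stromal ascorbate peroxidase that removes hydrogen peroxide, was at 510.8, 472.0 and 135.6, whereas its thylakoid relative TAPX was at 145.5, 118.3 and 204.4. Their log2 ratios at 24 h were -1.91 and 0.49, of which the rule chose the first. AT4G38100, listed as CURT1D of the family that curves thylakoid membranes, was at 237.9, 172.2 and 54.8. The other CURT1 genes, AT4G01150 (2274, 1958 and 2169.6) and AT1G52220 (464.2, 516.2 and 719.1), were within 2-fold.

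Factors for RNA of the organelles were also among the members. AT5G55580, listed as mTERF9 of a family that acts on organelle genes, was at 82.3, 65.4 and 14.2 on the cold-acclimated, 3 h and 24 h arrays, at least 5.11-fold lower at 24 h. PPR596, a pentatricopeptide repeat protein, was at 149.5, 89.7 and 37.7, and PPR336, the other gene on the annotation with such a numbered symbol, was at 163.7, 97.0 and 61.9. OTP81, a protein of organelle transcript processing, had a log2 ratio of -0.03 at 3 h (51.8, 50.6 and 2.24). It was at least 3.22-fold lower at 24 h, while the other 3 measured OTP genes had log2 ratios of -0.54 to 0.15. CAF1, a gene for splicing of chloroplast introns, was at 88.1, 50.3 and 28.9.

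**Figure D3:**
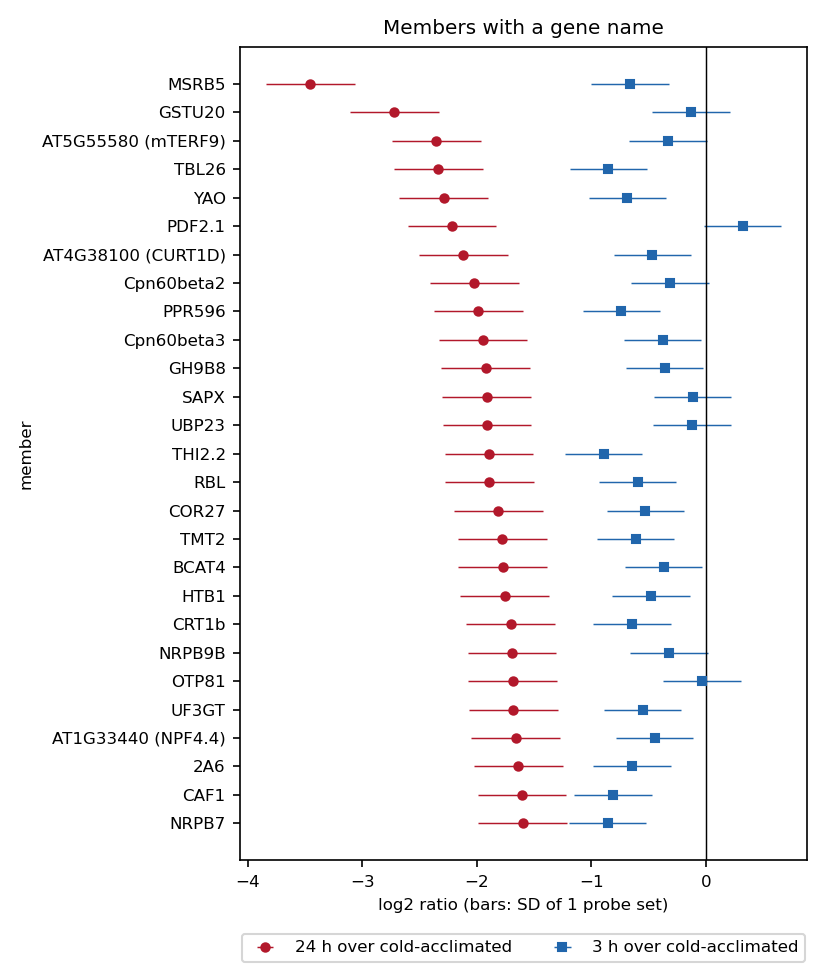
Log2 ratios to the cold-acclimated array at 24 h (red circles) and at 3 h (blue squares) for the members with a symbol or a named synonym. Bars are the SD of 1 probe set (0.39 at 24 h and 0.34 at 3 h), taken from signals above the floor. AT5G55580, PDF2.1, THI2.2 and OTP81 were at the floor at 24 h, so their points there are bounds to which the bars do not apply. All ratios at 3 h lie between -0.89 and 0.32.

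Enzymes and transporters of metabolism formed a further group. BCAT4, the aminotransferase that starts the lengthening of methionine for aliphatic glucosinolates, which are defence compounds of the cabbage family, was at 638.6, 495.0 and 186.9 on the cold-acclimated, 3 h and 24 h arrays. With GSTU20 it made up the 2 genes of the 23 on the aliphatic glucosinolate list that the annotation holds. The other named branched-chain aminotransferase, ATBCAT-5, was at 89.9, 63.3 and 110.9. UF3GT, a glycosyltransferase of anthocyanin synthesis, was at 88.6, 60.5 and 27.6, 3.21-fold lower at 24 h. TMT2, a transporter that loads sugars into the vacuole, was at 313.5, 205.0 and 91.4. Its relatives took other courses, TMT1 with 418.8, 291.7 and 299.0 and TMT3 with 18.3, 45.2 and 29.5. AT1G33440, listed as NPF4.4 of the nitrate and peptide transporter family, was at 99.1, 72.8 and 31.3.

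Among the wall and secreted proteins, TBL26, of a family that acts on the acetylation of wall polysaccharides, was at 225.6, 124.9 and 44.7 on the cold-acclimated, 3 h and 24 h arrays, 5.05-fold lower at 24 h. Of the other 18 measured genes of this family, 2 were at least 2-fold lower and 3 at least 2-fold higher, with TBL15 lowest at -1.27 and TBL37 highest at 1.76. The 2 lower ones, TBL15 (38.9, 21.0 and 8.33) and TBL28 (32.4, 19.2 and 10.7), were below the floor at 24 h, so their ratios are bounds. GH9B8, a glycosyl hydrolase, was at 82.9, 64.6 and 21.8, and the other 7 measured genes of its family all lay within 2-fold. The antimicrobial peptides PDF2.1 (74.8, 93.5 and 12.7), a defensin, and THI2.2 (59.8, 32.2 and 7.98), a thionin, were at least 4.65- and 3.72-fold lower at 24 h. Of the 24 members with a symbol, only PDF2.1 was above the cold-acclimated array at 3 h. Among the other 7 measured defensin genes only LCR68 was at least 2-fold lower (1141, 700.9 and 424.5), and LCR67 and PDF1.4 were at least 2-fold higher.

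Of the remaining named members, CRT1b, a calreticulin that binds calcium and folds glycoproteins in the endoplasmic reticulum, was at 1431, 915 and 438.7 on the cold-acclimated, 3 h and 24 h arrays. UBP23, which removes ubiquitin from proteins, was at 179.1, 164.7 and 47.6. Of the 11 other measured UBP genes UBP21 was at least 2-fold lower (58.3, 44.7 and 25.6) and the other 10 lay within 2-fold. COR27, a cold- and light-regulated gene that acts on the circadian clock, was at 342.2, 237.1 and 97.4, 3.51-fold lower at 24 h. By the schedule the 24 h and cold-acclimated harvests fall at the same hour of the earlier light cycle, and the 3 h harvest does not. The gene 2A6 was at 558.7, 357.1 and 179.4.

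Over 17 families that hold a member, grouped by symbol, 87 other genes were measured. At 24 h 12 of these (13.8%) were at least 2-fold lower, 8 (9.20%) at least 2-fold higher and 67 within 2-fold, beside 7.92% lower and 7.52% higher among all measured probe sets naming 1 gene. The families were chosen through their members, so these shares are a description.

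**Figure D4:**
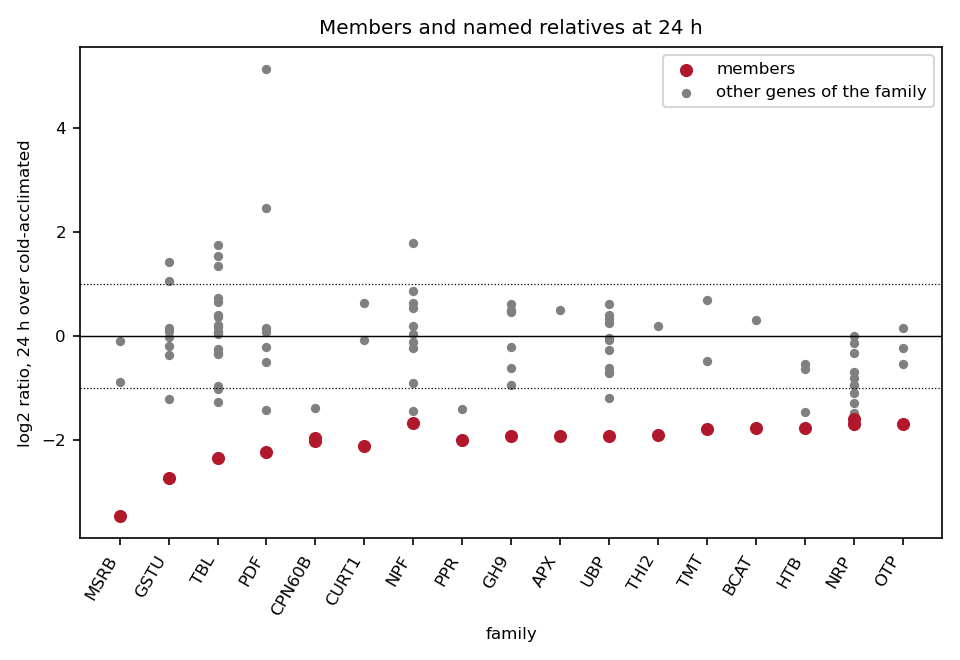
Log2 ratio of 24 h to cold-acclimated for the members (red) and their 87 measured relatives (grey) in 17 families, named by symbol; dotted lines mark 2-fold. Relatives of TBL26, PDF2.1, UBP23 and GH9B8 lie on both sides of 0, whereas the 9 other RNA polymerase subunits (NRP) all lie below it, the highest at -0.003. The measured relatives in HTB, MSRB, CPN60B and PPR also all lie below 0.

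Further members had strong signals on the cold-acclimated array. AT5G55450 was at 1710.1, 1279 and 439.3 on the cold-acclimated, 3 h and 24 h arrays, AT3G28220 at 1187, 1449 and 347.4, and AT5G20160 at 1083, 1028 and 316.4. AT2G28790 (915.3, 676.4 and 232.9) and AT4G12600 (678.6, 532.4 and 179.9) followed. In each of them the 24 h signal was between 3.42- and 3.93-fold below the cold-acclimated one, so the floor plays no part in these ratios.

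The members were not alike at 3 h. Their log2 ratio of 3 h to cold-acclimated had a median of -0.43 and ran from -0.99 to 1.00, where the 5600 well-measured probe sets had a median of -0.20. This comparison shares the cold-acclimated array with the 24 h one. Signals at 3 h were at most 75% of the cold-acclimated ones in 78 of the 150 members, beside 24.6% of all measured probe sets naming 1 gene and 27.8% of the 5600. The rule used the 3 h signal too, so nothing is read from this count. The 12 members above the cold-acclimated array at 3 h were led by AT3G55940 (65.4, 130.5 and 21.7 on the cold-acclimated, 3 h and 24 h arrays), AT3G14890 (179.9, 291.0 and 52.6), AT1G65490 (440.6, 702.2 and 144.9) and AT3G03770 (99.9, 137.1 and 24.2). In these the signal as deposited was highest on the 3 h array, with log2 ratios to the cold-acclimated one of 1.00, 0.69, 0.67 and 0.46. Scaling to the hybridization controls shifts ratios at 3 h by -0.78. The signals of AT3G14890, AT1G65490 and AT3G03770 at 3 h would then fall below the cold-acclimated level. At the other end AT2G31790 was at 276.3, 138.8 and 84.6, and AT5G53420 at 244.5, 124.2 and 72.8, with most of the difference already present at 3 h.

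Between the 24 h and 3 h arrays, both from dark plants at 20 °C, recovery time, length of darkness and hour of the daily cycle cannot be told apart. In this comparison 134 members were 2-fold lower or more, 61 at least 3-fold and 20 at least 4-fold, while 8.23% of all measured probe sets naming 1 gene were at least 2-fold lower and 3.03% at least 3-fold. The rule fixes much of this, because it holds the 3 h value near the cold-acclimated one. The median log2 ratio was -1.51 among members and 0.05 among the 5600 well-measured probe sets. With the floor applied it ran from -3.20 for AT1G31690 to -0.71 for AT5G20740, and the ratios of the 21 members at the floor at 24 h are bounds, such as -2.99 for AT1G06000. AT5G20740 was at 51.8, 26.3 and 2.33 on the cold-acclimated, 3 h and 24 h arrays and so at the floor at 24 h. The 16 members less than 2-fold lower than at 3 h included NRPB7 (-0.74), CAF1 (-0.80), 2A6 (-0.99) and AT4G10480 (-0.98).

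With the floor applied, the ratios were continuous across the thresholds. Just inside the 3-fold limit at 24 h lay AT1G66830 (48.4, 32.3 and 6.56 on the cold-acclimated, 3 h and 24 h arrays), AT5G12470 (516.1, 447.4 and 171.5), AT3G55940, AT4G10480 (1019.7, 663.3 and 336.5) and AT1G17665 (66.6, 39.9 and 22.0), with log2 ratios of -1.59 to -1.60. Just outside it were AT3G56330, AT5G64150, AT1G04900, AT5G09510 (587.9, 573.4 and 197.3) and AT5G06050, from -1.58 to -1.57. AT1G66830, AT5G64150 (48.2, 40.8 and 7.20) and AT5G06050 (48.0, 31.8 and 15.3) were below the floor at 24 h. Their ratios are bounds, and their cold-acclimated signals alone set on which side of the 3-fold limit they fall. The members nearest to the 2-fold limit at 3 h were AT3G55940 (1.00), AT2G31790 (-0.99), AT5G20740 (-0.98), AT5G53420 (-0.98) and AT5G50340 (-0.93). Just outside that limit were AT3G03060 and AT4G15770, both past 2-fold by less than 0.01 log2 units, and AT1G69523 (-1.02), AT1G18090 (-1.04) and AT2G14660 (-1.05). These differences between members and non-members are below the SD of 0.34 to 0.39 for 1 probe set, which was taken from signals above the floor.

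For 4 genes the array carried another probe set naming that gene alone. That of AT1G31690 was a member too. The others were not. For AT1G79150 the member was at 74.6, 57.8 and 14.6 on the cold-acclimated, 3 h and 24 h arrays and the other probe set at 86.0, 76.6 and 48.5. Their log2 ratios at 24 h were -2.21, a bound since the member was below the floor, and -0.83. For AT5G62440 they were at 117.4, 107.3 and 31.4 and at 120.4, 118.3 and 55.1, with ratios of -1.90 and -1.13. The other probe set of 2A6 was below the floor on all 3 arrays. In the pairs of AT1G79150 and AT5G62440 the other probe set read a smaller difference. The rule fixes this, since both others were within 2-fold at 3 h and yet not members.

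Members lay on all 5 chromosomes, with 34 on chromosome 1, 20 on chromosome 2, 38 on chromosome 3, 24 on chromosome 4 and 34 on chromosome 5. No member was next to another in the order of protein-coding genes. Among 115 measured neighbours, 8 (6.96%) had a 24 h signal lower by 2-fold or more, beside 7.92% among all measured probe sets naming 1 gene, and 5 (4.35%) were at least 2-fold higher. PDF2.1 stood beside the defensin gene LCR68, and AT1G64890 beside AT1G64880 (239.7, 176.2 and 64.4 on the cold-acclimated, 3 h and 24 h arrays), a ribosomal protein gene that the rule leaves out. AT3G15460 had AT3G15450 as its neighbour, which took the opposite course, at 421.8, 503.2 and 2214.

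The other lists had few genes on the annotation. Of 363 places on 27 lists 51 were on the annotation, and 11 lists had no gene measured, among them light response, nitrate assimilation and wax and cutin. No other list held a member. Tubulin genes had 0 of 7 past 2-fold in either direction and a median of 0.11, chlorophyll synthesis 0 of 5 and 0.004, the Calvin cycle 0 of 3 and 0.08, and fatty acid synthesis 0 of 3 and 0.22. These medians turn sign with scaling to the hybridization controls, to -0.41, -0.52, -0.45 and -0.30. Sulfate assimilation and the cold regulon each had 1 of 3 genes at least 2-fold lower, APS3 and COR15A, with medians of -0.91 and -0.69. COR15A, a chloroplast protein that guards membranes in the cold, was at 3969, 4581 and 1779.7 on the cold-acclimated, 3 h and 24 h arrays. Its close relative COR15B, which is not on the list and which the rule leaves out of the members, was at 2369.7, 2537.6 and 545.4, a log2 ratio of -2.12 at 24 h. The cell cycle list had 1 of 2 lower, and the cell wall list 2 of 2 higher, among them EXPA8, an expansin that loosens walls (36.1, 2.45 and 280.4).

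The description of the members as near the cold-acclimated level at 3 h depends on how the arrays are scaled. With scaling to the hybridization controls all 150 were still at least 3-fold lower at 24 h, but only 42 were within 2-fold of the cold-acclimated array at 3 h, and the median ratio of the members at 3 h was -1.21. With a common median 148 met both limits, and with quantile normalization 147.

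**Figure D5:**
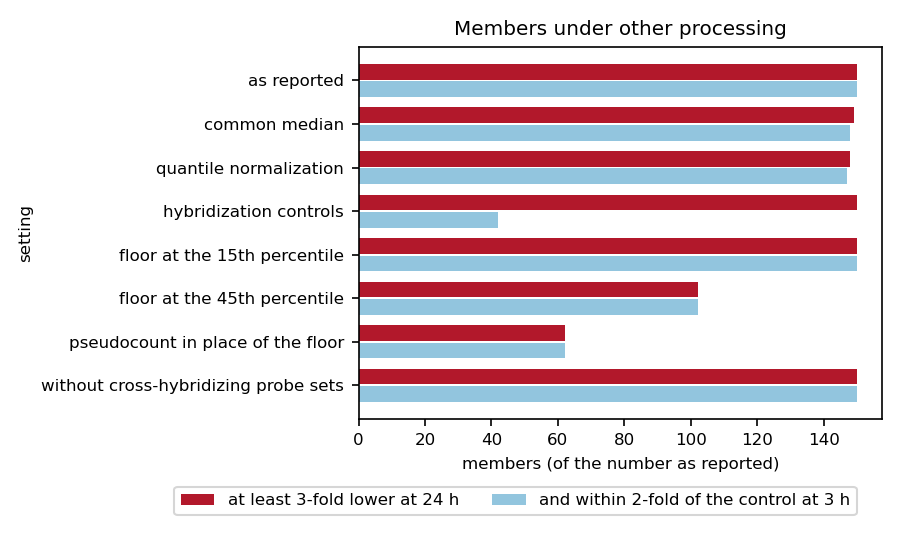
Number of the 150 members that were at least 3-fold lower at 24 h (red) and that also lay within 2-fold at 3 h (blue) when 1 processing choice was altered. Scaling to the hybridization controls kept 150 and 42, and a pseudocount in place of the floor kept 62 and 62.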

How the data were processed

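The authors deposited 1 table of MAS5 signal intensities per probe set on a linear scale, with 1 column per array; MAS5 is named per the submitters' processing notes, and its version and settings are not given in the sources used here. The number of arrays limits the precision. The deposited values were used without rescaling. The floor is the 30th percentile of the Arabidopsis signals, 16.1, and ratios were taken on the log2 scale. Gene names came from the platform annotation, and symbols were brought up to date from the TAIR10.1 annotation of RefSeq (13436 of 13513 probe sets matched); 503 probe sets naming several genes and 8730 naming none were not used. That table gives no function for most locus codes, so genes are named only as it names them, and ribosomal proteins were left out, and pathway lists written, by locus code. In lists, families and neighbours a gene was read by its brightest probe set, and one with no signal over the floor on either array compared was treated as unmeasured. No sequences were used here.

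The members and lists were chosen with earlier results of these data known. Named were list members, the 20 lowest above the floor, the 10 with the strongest cold-acclimated signal, the 6 strongest at the floor at 24 h and the 5 nearest each limit; members with a gene name, those highest at 3 h, and relatives by symbol, neighbours and further probe sets were added after values were seen. Alternatives were 3 other scalings, a lower floor (percentile 15), a higher one (percentile 45), a pseudocount of 16, leaving out cross-hybridizing probe sets, and other limits. The selection was tested on simulated data with 4- and 8-fold drops set in strong signals only. That test does not cover drops in weak signals or drops near the 3-fold limit. Python 3.11.15, numpy 2.4.6, pandas 2.3.3 and matplotlib 3.10.9 were used.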

Additional observations from a re-analysis of the deposited data

How the results depend on the processing

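No paired analysis was possible because each group held 1 array. The number of members stayed within 1.5 times of 150 with a common median, quantile normalization, scaling to the hybridization controls, a floor at percentile 45, without cross-hybridizing probe sets, with a limit of 1.5-fold at 3 h, and, added after seeing the data, with ribosomal proteins kept or 3 relatives of theirs left out, where it ran from 101 to 168. It was 308 with a floor at percentile 15, 66 with a pseudocount, 613 at a 2-fold and 40 at a 4-fold limit at 24 h. A like number did not mean the same probe sets. Scaling to the hybridization controls gave 134 members, of which only 42 were among the 150. The probe sets at least 3-fold lower at 24 h numbered 208, or 573 when scaled to the hybridization controls, 448 with the lower floor and 100 with a pseudocount. With that scaling to the controls the members' median log2 ratio was -2.30 at 24 h and -1.21 at 3 h, against -1.81 and -0.43; the bacterial controls set these shifts by construction. The median of 24 h against 3 h was -1.17 to -1.62 over the alternatives. A lower floor lets dim probe sets pass, and a pseudocount shrinks their ratios. No array can be left out, and signals near the floor limit 21 folds to bounds.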

Other observations

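The same limits were met by 163 probe sets that name no gene on the annotation, of 8730, and by 349 of all 22746 Arabidopsis probe sets.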
